A study of Rattus norvegicus with 6 samples.

Results

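The natriuretic peptide system was examined as 10 genes: the peptides Nppa, Nppb and Nppc, the receptors Npr1, Npr2 and Npr3, the convertases Corin and Furin, the cGMP-dependent kinase Prkg1 and the peptidase Mme. They were chosen as genes of this pathway, with earlier results of these data known, and each was matched through its RefSeq accession to 1 probe, so that 10 of the 30367 probes and 10 of the 15168 named genes on the array belonged to the system. All 10 probes were well above background on all 6 arrays and entered the test. The cells were primary ventricular myocytes of male Sprague-Dawley rats aged 1 to 2 days. Both groups were preplated to lower the number of fibroblasts, grown with bromodeoxyuridine and cultured for 36 h. Then 3 samples received 50 nmol/L of an siRNA against uc.323 (si-uc.323) and 3 received 50 nmol/L of a scrambled siRNA (si-scramble), for 3 h in medium without serum. After a further 21 h of serum starvation, 24 h after transfection, total RNA was labelled with Cy3 and hybridised to single-colour Agilent arrays. The series title places the comparison among the targets of uc.323 in hypertrophy, the growth in size of cardiomyocytes. The level of uc.323, a transcribed ultraconserved region, was not analysed here, so its knockdown is not checked. The samples are described as independent experiments, with no word on shared litters, so p-values reflect only how these samples vary.

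Natriuretic peptides are hormones that lower blood volume and pressure. ANP (from Nppa) and BNP (from Nppb) are made by heart muscle cells as precursors, cut to their active form by the proteases corin and furin, and bind NPR-A (from Npr1), a receptor whose intracellular part makes cGMP. CNP (from Nppc) acts mainly through NPR-B (from Npr2), which also makes cGMP, while NPR-C (from Npr3) has no cyclase part and takes the peptides up for breakdown. Neprilysin (from Mme) cuts the peptides outside the cell, and cGMP-dependent kinase I (from Prkg1) carries the cGMP signal onward. In the ventricle Nppa and Nppb are fetal genes that fall after birth and come back in hypertrophy and heart failure, which is why they serve as markers of both.

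The agent that separates the groups is shown first, as the strand given in the labels, without its deoxythymidine overhang. It has 19 bases.
si-uc.323: gguaaguaauuucagcaau
The promoters of Nppa, Nppb and Npr3 are shown because the first pair are the cardiac peptide genes that cardiac transcription factors are known to drive and Npr3 is the only member that passed the test. Each sequence is the 250 bases before the RefSeq start on assembly GRCr8, read 5′ to 3′ on the gene's strand, with capitals for motif matches. Searched on both strands were the GATA factor core, spelled GATAA, and the core bound by NK2 factors such as Nkx2-5, spelled AAGTG. Further motifs were the M-CAT core of the TEAD factors, spelled CATTCC, and the box of the TATA-binding protein, spelled TATAAA. The binding boxes of serum response factor and of the MEF2 factors, known as the CArG box and the MEF2 box, were searched as patterns. No mismatch was allowed, so near matches were not counted. No match overlapped another.
Nppa, chr5:163711934-163712183, plus strand: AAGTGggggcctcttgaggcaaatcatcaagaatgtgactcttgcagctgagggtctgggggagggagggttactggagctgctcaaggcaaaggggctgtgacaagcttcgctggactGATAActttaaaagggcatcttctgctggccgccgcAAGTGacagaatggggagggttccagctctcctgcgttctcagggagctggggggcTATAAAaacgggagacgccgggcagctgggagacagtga
Nppb, chr5:163699758-163700007, plus strand: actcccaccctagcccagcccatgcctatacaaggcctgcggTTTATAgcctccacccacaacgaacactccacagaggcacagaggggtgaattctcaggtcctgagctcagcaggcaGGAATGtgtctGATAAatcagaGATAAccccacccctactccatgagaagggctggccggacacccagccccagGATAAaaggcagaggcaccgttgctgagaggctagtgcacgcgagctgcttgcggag
Npr3, chr2:62658766-62659015, minus strand: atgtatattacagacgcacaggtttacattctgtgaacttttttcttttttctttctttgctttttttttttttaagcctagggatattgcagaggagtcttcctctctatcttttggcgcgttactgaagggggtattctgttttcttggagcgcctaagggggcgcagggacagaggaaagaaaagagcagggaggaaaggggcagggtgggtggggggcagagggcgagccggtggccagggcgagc

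The Nppa window held 4 matches: an NK2 core at 250 to 246 and at 95 to 91 bases before the start, a GATA core at 131 to 127 and a TATA core at 39 to 34. The Nppb window held 5: GATA cores at 120 to 116, 109 to 105 and 57 to 53, an M-CAT core on the other strand at 131 to 126 and a TATA core on the other strand at 208 to 203. The Npr3 window held 0 matches, which says only that these letters are not in it, and it was 49.6% G and C against 57.2% for Nppa and 58% for Nppb. A promoter was listed for 8 of the 10 genes, the exceptions being Furin and Npr2. GATAA was in 3 of the 8 and in 23.5% of all 33469 promoter windows of this length, and TATAAA was in 3 of the 8 and in 12.9%. AAGTG was in 1 of the 8 and in 40.6% of all windows, and CATTCC was in 1 of the 8 and in 12.1%. The CArG box was in 1.5% and the MEF2 box in 2.96% of all windows, and neither had an exact match in a member's window. Nppb lies directly before Nppa on chromosome 5, on the same strand.

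Levels are given as log2 of the processed intensity relative to the 75th percentile of the same array, so that 0 is the brightness at that percentile; levels of different genes come from different probes and are not compared. No label names the slides, so arrays with the same scan date in the file headers were taken to share a slide. So grouped, slide 1 carried every control array together with replicate 1 of si-uc.323, while slide 2 carried only replicates 2 and 3 of si-uc.323. Slide 2 was brighter, with a 75th percentile of 1718 and 1775 intensity units against 1182 to 1381 for slide 1, and had more probes well above background, 78.2% and 86.5% against 71.8% to 73.9%. No spot was saturated. The number of arrays limits the precision: with 3 per group, the standard error of a member's log2 fold change lay between 0.11 and 0.14. Differences were taken as si-uc.323 minus si-scramble and tested with limma over 21994 probes with Benjamini-Hochberg adjustment and a threshold of 0.05.

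Npr3 rose 2.53-fold after si-uc.323 and was the only member of the system to pass the test. The members passing in either direction were thus 1 of 10, beside 5.89% of all tested probes (3.48% higher and 2.41% lower). The transcripts of the peptides, of the cyclase-linked receptors and of the proteases differed by smaller amounts and did not pass. Npr1 and Furin were negative and the other 8 were positive, and the median of the 10 log2 fold changes was 0.17 against 0.057 for all tested probes. The groups did not overlap for 8 of the 10 genes, beside 35.4% of all tested probes; 6 were higher in si-uc.323 (19.7% of all probes) and 2 were lower (15.8% of all probes). At an unadjusted p under 0.05, 3 of the 10 passed, Npr3, Nppb and Furin, beside 28.3% of all tested probes (6222 of 21994), so this count is near the background.

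**Figure D1:**
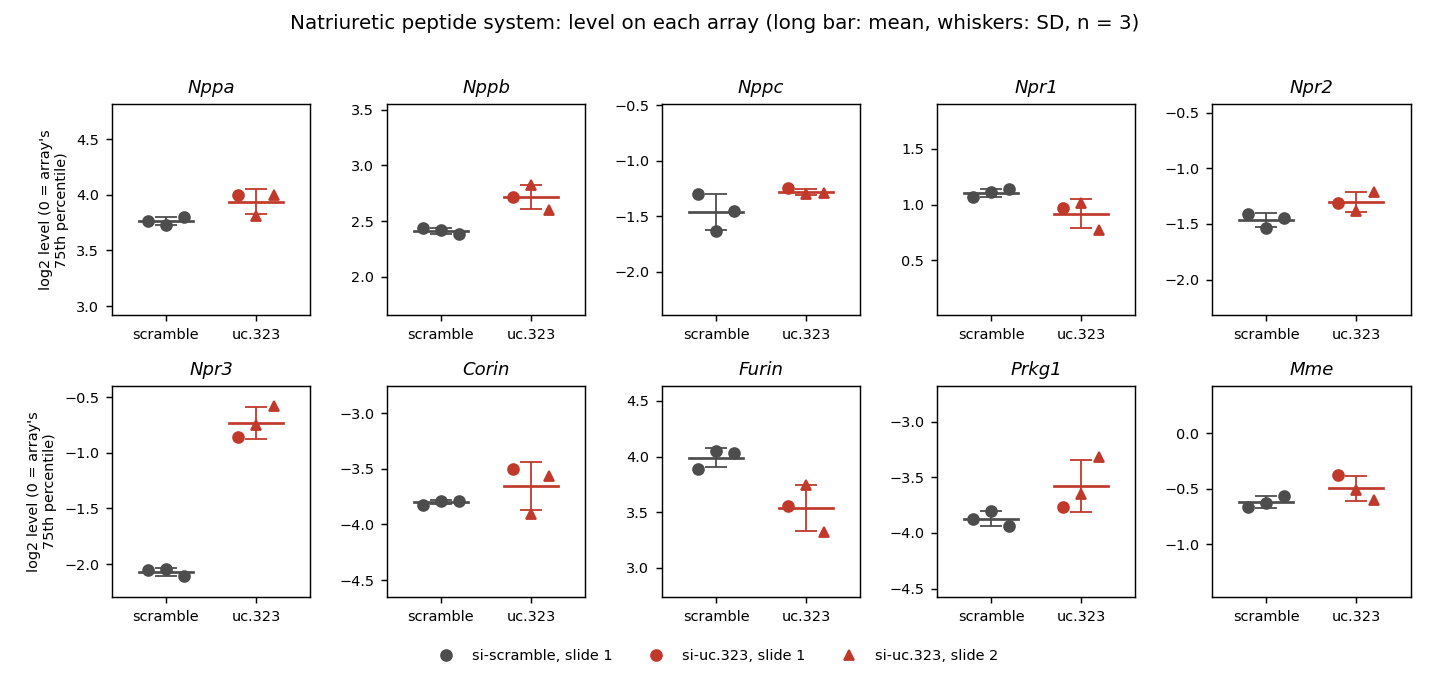
Log2 level of each of the 10 genes on each array (vertical axis, 0 at the array's 75th percentile), with si-scramble at the left and si-uc.323 at the right of each panel; the marker shape gives the slide, long bars the mean and whiskers the SD (n = 3). All panels span the same number of log2 units, and the Npr3 groups, at −2.11 to −2.04 and −0.86 to −0.58, lie farthest apart.

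Nppa, the atrial natriuretic peptide gene, was at 3.76, 3.73 and 3.80 in the 3 si-scramble samples and at 4.0, 3.81 and 4.0 in the 3 si-uc.323 samples. The si-uc.323 samples all lay above the si-scramble samples, with replicate 2 nearest to them. The means of 3.77 ± 0.037 and 3.94 ± 0.11 (SD, n = 3 each) differ by 0.17 ± 0.11 (SE), with a 95% interval from −0.086 to 0.43 and a limma adjusted p of 0.342. An increase of up to 0.43 log2 units therefore lies within the interval, as does a small decrease. A shift to a common median gave 0.068 for Nppa. Nppb, the brain natriuretic peptide gene, was at 2.44, 2.42 and 2.39 in si-scramble and at 2.72, 2.82 and 2.60 in si-uc.323. Here too every si-uc.323 sample was above every si-scramble sample. The difference of 0.30 ± 0.11 (SE; 1.23-fold) had a 95% interval from 0.044 to 0.56 and an unadjusted p of 0.0276, and it missed the threshold after adjustment over all probes (limma adjusted p = 0.131). Of the 20 processing alternatives, array weights put Nppb past the threshold (0.32, limma adjusted p = 0.0189), and a shift to a common median gave 0.20. With array weights 6542 of the 21994 tested probes were called, against 1295 in the reported fit, so a call there sets a gene less apart.

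Nppa and Nppb are each printed 10 times on the array, which shows the error within an array. The SD among the spots of an array was 0.028 to 0.11 for Nppa and 0.026 to 0.088 for Nppb. Of these spots, 4 of Nppa and 1 of Nppb were flagged and left out over the 6 arrays. Within an array, where any scaling cancels, Nppb minus Nppa differed between the groups by 0.13, with values of −1.42 to −1.31 in si-scramble and −1.40 to −0.99 in si-uc.323 that overlapped. An exact permutation test (two-sided) gave p = 0.4 and 0.4 after adjustment over 3 such differences; the smallest p that 3 against 3 samples allow is 0.1.

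Nppc, the gene of C-type natriuretic peptide, was at −1.30, −1.63 and −1.45 in si-scramble and at −1.25, −1.30 and −1.29 in si-uc.323. The highest si-scramble and the lowest si-uc.323 sample nearly touched. Its difference of 0.18 ± 0.12 (SE) had an interval from −0.10 to 0.47 and did not pass (limma adjusted p = 0.364). It was 0.066 with normexp background correction, 0.077 with a shift to a common median and 0.097 without si-scramble replicate 2. Nppc was the only member whose si-scramble samples spread more than its si-uc.323 samples. In the other 9 the SD was larger in si-uc.323. The arrays of that group were also less alike, with correlations of 0.987 to 0.992 against 0.993 to 0.996 in si-scramble. The share of all probes with a larger SD in si-uc.323 was not counted. Any cause of the spread, the slides included, was not tested.

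The receptor genes are listed next. Npr1, the receptor of ANP and BNP, was at 1.06, 1.11 and 1.14 in si-scramble and at 0.97, 1.01 and 0.77 in si-uc.323. All 3 si-uc.323 samples were below the si-scramble samples, by the most in replicate 3. The difference of −0.18 ± 0.11 (SE; 95% interval −0.45 to 0.084) did not pass (limma adjusted p = 0.328); it was −0.29 with a shift to a common median and −0.11 without si-uc.323 replicate 3. Npr2, the receptor of CNP, was at −1.41, −1.53 and −1.45 in si-scramble and at −1.31, −1.38 and −1.21 in si-uc.323. Its samples did not overlap but lay close together. The difference was 0.16 ± 0.11 (SE; 95% interval −0.094 to 0.42; limma adjusted p = 0.367) and 0.057 with a shift to a common median. Both genes have 10 spots per array, with an SD among spots of 0.033 to 0.058 for Npr1 and 0.051 to 0.075 for Npr2.

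Npr3, the clearance receptor, was at −2.05, −2.04 and −2.11 in si-scramble and at −0.86, −0.75 and −0.58 in si-uc.323. On the intensity scale before scaling these were 290, 335 and 274 units against 664, 1020 and 1186 units. Every si-uc.323 sample was more than 1 log2 unit above every si-scramble sample, and the si-uc.323 sample that shares slide 1 with the controls was the lowest of its group. The means were −2.07 ± 0.036 and −0.73 ± 0.14 (SD, n = 3 each), a difference of 1.34 ± 0.12 (SE) with a 95% interval from 1.06 to 1.61 and a limma adjusted p of 0.00878. Among the 21994 tested probes Npr3 was number 16 by p and number 71 from the largest log2 fold change. It was read by a single spot per array, so the array gives no within-array error for it.

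The Npr3 difference was positive under all 20 alternatives, from 1.07 with normexp background correction to 1.40, and stayed past the threshold in 14. Against the si-uc.323 sample on slide 1 alone it was 1.21, and with slide as a block it was 1.21 (limma adjusted p = 0.0947). Because slide 2 held no control, the block also takes its difference only from si-uc.323 replicate 1 against the controls. These alternatives are therefore not separate checks. Leaving out si-scramble replicate 1, 2 or 3 gave 1.35, 1.35 and 1.32 with limma adjusted p of 0.0735, 0.0565 and 0.0842. Without the filter on dim probes the adjusted p was 0.0659. A shift to a common median moved the median of all tested probes from 0.057 to −0.048; relative to that median, Npr3 differed by 1.28, a value that such a shift cannot change. Npr3 minus Npr1 within an array differed between groups by 1.52 and Npr3 minus Npr2 by 1.18, with no overlap in either. The exact permutation test (two-sided) gave p = 0.1 for each, the smallest possible with 3 against 3 samples, and 0.15 after adjustment over the 3 differences.

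**Figure D2:**
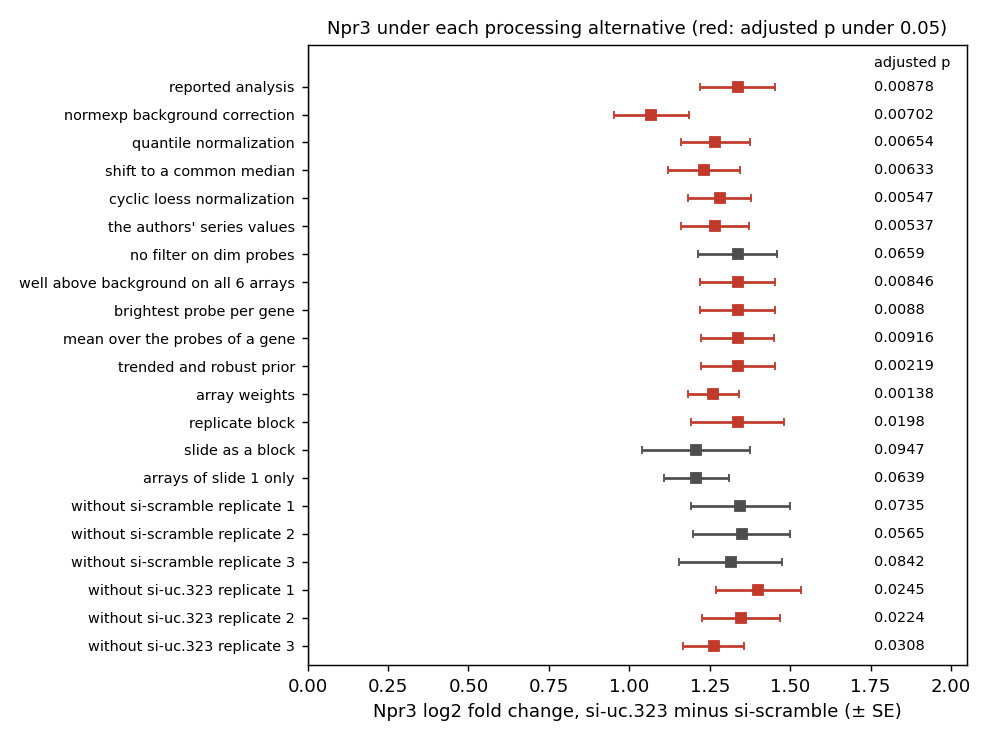
Log2 fold change of Npr3 (horizontal axis, si-uc.323 minus si-scramble, ± SE) under the reported analysis and each of the 20 alternatives, with the adjusted p at the right; red marks an adjusted p under 0.05. All values lie between 1.07 and 1.40, and 14 of the 20 alternatives keep the adjusted p under the threshold.

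The proteases that activate the peptides did not pass. Furin, the convertase that cuts the BNP precursor among many others, was at 3.89, 4.05 and 4.03 in si-scramble and at 3.55, 3.74 and 3.32 in si-uc.323. All 3 si-uc.323 samples were lower, replicate 3 the lowest. The difference of −0.45 ± 0.14 (SE) had a 95% interval from −0.78 to −0.13, which excludes 0, but the limma adjusted p was 0.0926. Furin passed without si-uc.323 replicate 2 (−0.55, limma adjusted p = 0.0414). It also passed with array weights (−0.45, limma adjusted p = 0.0129), which called 6542 of the 21994 tested probes. Corin, the myocyte protease that cuts the ANP precursor, was at −3.82, −3.79 and −3.79 in si-scramble and at −3.50, −3.90 and −3.56 in si-uc.323. Its si-uc.323 replicate 2 was below every control while the other pair were above them. The difference was 0.15 ± 0.14 (SE; 95% interval −0.17 to 0.46; limma adjusted p = 0.515) and turned to −0.089 with normexp background correction. It ranged from there to 0.30, the value with slide as a block, and leaving out replicate 1 or 2 of si-uc.323 gave 0.069 or 0.27.

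Prkg1, the kinase that cGMP switches on, was at −3.87, −3.81 and −3.94 in si-scramble and at −3.77, −3.65 and −3.32 in si-uc.323. The groups did not overlap, but si-uc.323 replicate 1 nearly met the controls. The difference was 0.29 ± 0.14 (SE; 95% interval −0.042 to 0.63; limma adjusted p = 0.225). It was 0.023 with normexp background correction, 0.11 with slide as a block and 0.16 without si-uc.323 replicate 3. Mme, the gene of neprilysin, was at −0.67, −0.63 and −0.56 in si-scramble and at −0.38, −0.51 and −0.60 in si-uc.323. These groups overlapped through si-uc.323 replicate 3, and the difference was 0.12 ± 0.11 (SE; 95% interval −0.14 to 0.39; limma adjusted p = 0.505). For Mme the shift to a common median gave 0.019, slide as a block 0.24, and leaving out si-uc.323 replicate 1 gave 0.064.

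**Figure D3:**
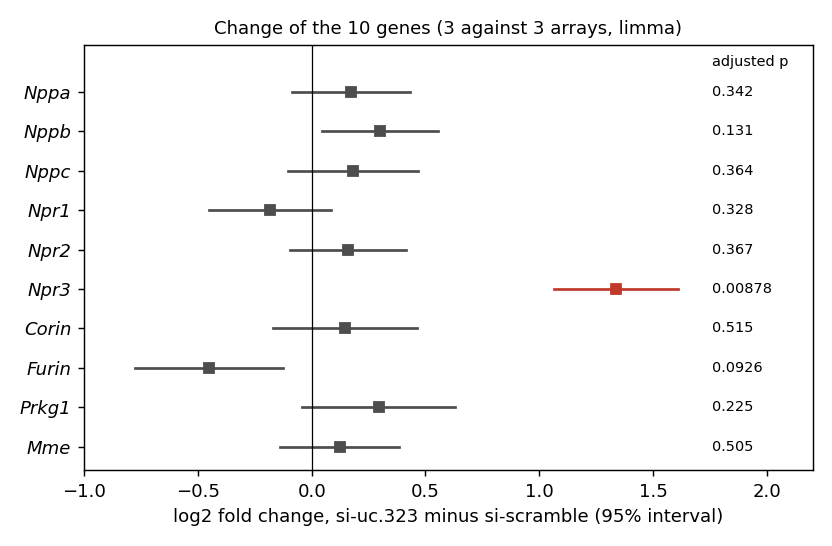
Log2 fold change of the 10 genes (horizontal axis, si-uc.323 minus si-scramble) with 95% intervals from limma and the adjusted p at the right. The Npr3 interval, 1.06 to 1.61, lies above all others, and the intervals of Nppb and Furin exclude 0 without an adjusted p under 0.05.

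RNA was taken from the whole culture, so fewer cells of a type and less RNA per cell cannot be told apart, and markers of other cell types are given beside the rise of Npr3. Summed marker levels are multiples of the array's 75th percentile, with 1 probe per gene. All 9 ventricular myocyte markers were well above background on all 6 arrays, as the label of the cells asks, and summed to 226 to 241 in si-scramble and 200 to 221 in si-uc.323; 5 of the 9 were positive and 4 negative, with a median of 0.011. Of these, 1 passed: Actc1 (cardiac actin) fell by 0.63 on the log2 scale (limma adjusted p = 0.0313), while Myh7 (beta myosin heavy chain), the most positive, differed by 0.29 (limma adjusted p = 0.145). An unadjusted p under 0.05 in limma was found for 5 of the 9, beside 28.3% of all tested probes. They were Myh7 and the 4 negative markers: Actc1, Ryr2 (−0.46, with −0.029 for a dimmer probe), Myl3 (−0.34) and Tnni3 (−0.34). All 9 fibroblast markers were also well above background on every array. They summed to 124 to 134 in si-scramble and 126 to 157 in si-uc.323, which overlap. Of the 9, 7 were positive and 2 negative, with a median of 0.26. Their mean log2 level was 1.069 to 1.205 in si-scramble and 1.370 to 1.502 in si-uc.323, without overlap. In limma 2 of the 9 rose, beside 3.48% of all tested probes: Postn (periostin) by 0.69 ± 0.12 (SE; limma adjusted p = 0.0311) and Fap by 0.67 ± 0.14 (SE; limma adjusted p = 0.0388). With Col3a1 (0.50 ± 0.13, SE; limma adjusted p = 0.0628), 3 of the 9 had an unadjusted p under 0.05. The 8 smooth muscle and pericyte markers summed to 40.2 to 44.4 and 42.1 to 50.2. By their brightest probe, 6 were positive and 2 negative, with a median of 0.27. Their mean log2 level was 0.39 to 0.44 in si-scramble and 0.55 to 0.78 in si-uc.323, without overlap. In limma 0 of 8 passed by their brightest probe (3 at an unadjusted p under 0.05), while a dimmer probe of Myh11 rose by 1.25 ± 0.18 (SE; limma adjusted p = 0.0223). The part of these cells in the Npr3 result was not tested.

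The endothelial and endocardial markers went the other way as a sum: 11.1 to 12.5 in si-scramble and 5.60 to 8.61 in si-uc.323, over the 6 of 8 with a probe. Most of that sum is Kdr, a VEGF receptor, whose difference of −0.76 ± 0.20 (SE) did not pass (limma adjusted p = 0.0666), and 0 of 6 passed in limma. Tie1 cleared the background on all 3 si-uc.323 arrays and on no control array, so it entered the test only through the group where it is higher. Of the other 5, 2 were positive and 3 negative, and 2 had an unadjusted p under 0.05 in limma. That pair was Kdr and, in the opposite direction, Tek, at 0.46 ± 0.19 (SE; limma adjusted p = 0.162). The mean log2 level of the 6 overlapped between groups, at −2.91 to −2.63 in si-scramble and −2.82 to −2.70 in si-uc.323. That mean includes Tie1, so its overlap depends on a gene not above background on the control arrays and is no result about these cells. Atrial markers, of interest because Nppa is an atrial gene, summed to 22.0 to 23.7 and 22.4 to 24.2. Of these 7, 5 were well above background on all 6 arrays, Bmp10 was on none and 0 of 5 tested passed in limma (1 at an unadjusted p under 0.05). Leukocyte markers summed to 15.7 to 16.4 and 13.8 to 17.8 with 0 of 6 passing (1 at an unadjusted p under 0.05). Erythroid markers summed to 0.888 to 1.12 and 0.616 to 0.678, with Hbb lower, and Schwann cell and neuron markers to 1.40 to 1.75 and 1.19 to 1.45, with Dbh lower. The part of each of these in the results was not tested.

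**Figure D4:**
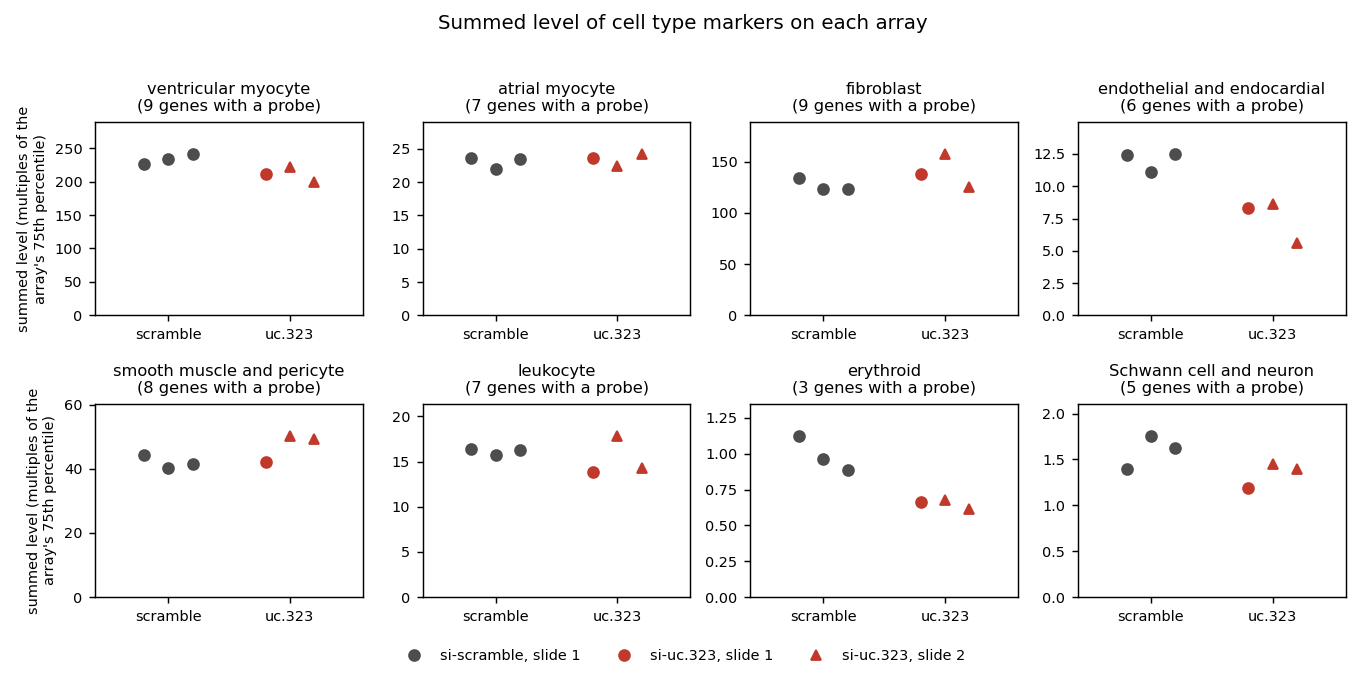
Summed level of the markers of each cell type (vertical axis, multiples of the array's 75th percentile, starting at 0) on each array, with si-scramble at the left and si-uc.323 at the right and the slide as marker shape. Ventricular myocyte and endothelial sums are lower in every si-uc.323 sample, and fibroblast sums, 124 to 134 against 126 to 157, overlap. As mean log2 levels, which are not drawn, the fibroblast markers do not overlap. The endothelial markers overlap in that measure only with Tie1 included, which was not above background on any control array.

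The lists of related genes are read against the 5.89% of all tested probes that passed and the 28.3% with an unadjusted p under 0.05; at those shares, 0 or 1 call in lists of this length is no result about a list. Of 11 listed genes of soluble and membrane guanylyl cyclases and nitric oxide synthases, 7 could be tested and 0 passed in limma (1 at an unadjusted p under 0.05); 2 were positive and 5 negative, with a median of −0.13. By the brightest probe of each gene, the lowest adjusted p were those of Gucy1b2, a soluble cyclase subunit, at −0.35 ± 0.14 (SE; 0.148) and Nos2, the inducible nitric oxide synthase, at −0.18 ± 0.12 (SE; 0.353). The probes of Gucy1b1, another soluble cyclase subunit, disagreed: the brighter one differed by −0.16 (limma adjusted p = 0.468) and the dimmer one by 1.02 ± 0.37 (SE; limma adjusted p = 0.135). Of 12 phosphodiesterases and exporters that end the cGMP signal, 11 were tested and 0 passed in limma. Pde11a cleared the background only in si-uc.323 and so could be tested only as higher there; of the other 10, 5 were positive and 5 negative, with a median of 0.0063, and 3 had an unadjusted p under 0.05. Pde3b, a phosphodiesterase that cGMP inhibits, differed by 0.40 ± 0.11 (SE; limma adjusted p = 0.0684) and Pde2a, one that cGMP stimulates, by −0.36 ± 0.13 (SE; limma adjusted p = 0.119).

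Downstream of the kinase, 1 of 9 tested effectors of 11 listed passed (5 at an unadjusted p under 0.05), with 6 positive, 3 negative and a median of 0.12. Trpc6, a calcium-permeable channel that the kinase phosphorylates and a known component of hypertrophic signalling, was at −2.31, −2.14 and −2.37 in si-scramble and at −1.69, −1.50 and −1.77 in si-uc.323. The groups stayed apart, and the rise of 0.62 ± 0.13 (SE) had a 95% interval from 0.32 to 0.92 and a limma adjusted p of 0.0398. Over the 20 alternatives the difference was 0.51 to 0.69 and its adjusted p 0.00511 to 0.261, past the threshold in 8; it missed with quantile normalization (0.0565), a median shift (0.0674) and the authors' deposited series values (0.0566). It also missed on leaving out si-scramble replicate 1, 2 or 3 (limma adjusted p = 0.154, 0.113 and 0.188) and si-uc.323 replicate 1 or 3 (0.0622 and 0.0551). Kcnmb1 and Kcnma1, the subunits of the large-conductance calcium-activated potassium channel, differed by 0.80 ± 0.25 (SE; limma adjusted p = 0.0936; −0.0025 with normexp) and −0.75 ± 0.25 (SE; limma adjusted p = 0.108). The probes of Irag1, a target of the kinase at the calcium store, disagreed: the brighter one differed by −0.34 (limma adjusted p = 0.15) and the dimmer one by 1.02 ± 0.15 (SE; limma adjusted p = 0.0242).

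Of 13 further genes of peptide processing and clearance, 8 were tested, 1 fell, beside 2.41% of all probes, 2 were positive and 6 negative, and the median was −0.18. The gene that fell was Dpp4, a cell-surface dipeptidase able to trim BNP, which was at −2.70, −2.67 and −2.62 in si-scramble and at −3.60, −3.40 and −3.81 in si-uc.323. The groups were well apart. It fell by 0.94 on the log2 scale (SE 0.13; 95% interval −1.25 to −0.63; limma adjusted p = 0.0206) and passed in 14 of 20 alternatives. Leaving out si-scramble replicate 1, 2 or 3 ended the call (limma adjusted p = 0.104, 0.088 and 0.124). Pcsk7, a convertase related to furin, differed by −0.71 ± 0.18 (SE; limma adjusted p = 0.0605) and Ece1, the endothelin-converting enzyme, by 0.26 ± 0.11 (SE; limma adjusted p = 0.166; 0.027 with normexp).

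Of 34 listed regulators of Nppa and Nppb, 27 had a matched probe and 25 were tested. Of these 1 fell, near the 2.41% of all probes, 9 were positive and 16 negative, and the median was −0.096 (−0.085 over the 24 that cleared the background on all 6 arrays). Mef2a, a transcription factor of muscle genes, was at −1.01, −1.25 and −1.13 in si-scramble and at −1.58, −1.81 and −1.78 in si-uc.323. Its groups did not overlap; it fell by 0.59 on the log2 scale (SE 0.12; limma adjusted p = 0.0407) and passed in 12 of 20 alternatives. Leaving out si-scramble replicate 1, 2 or 3 (limma adjusted p = 0.159, 0.119 and 0.182) or si-uc.323 replicate 3 (0.0737) ended the call. Mef2d, of the same family, differed by −0.50 ± 0.12 (SE; limma adjusted p = 0.057) and Klf13, a zinc finger factor of the heart, by −0.35 ± 0.10 (SE; limma adjusted p = 0.086). The slide limits these calls as it does that of Npr3: with slide as a block, the limma adjusted p was 0.261 for Trpc6, 0.16 for Dpp4 and 0.296 for Mef2a. Since slide 2 held no control, the difference in that fit comes only from si-uc.323 replicate 1 against the controls.

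**Figure D5:**
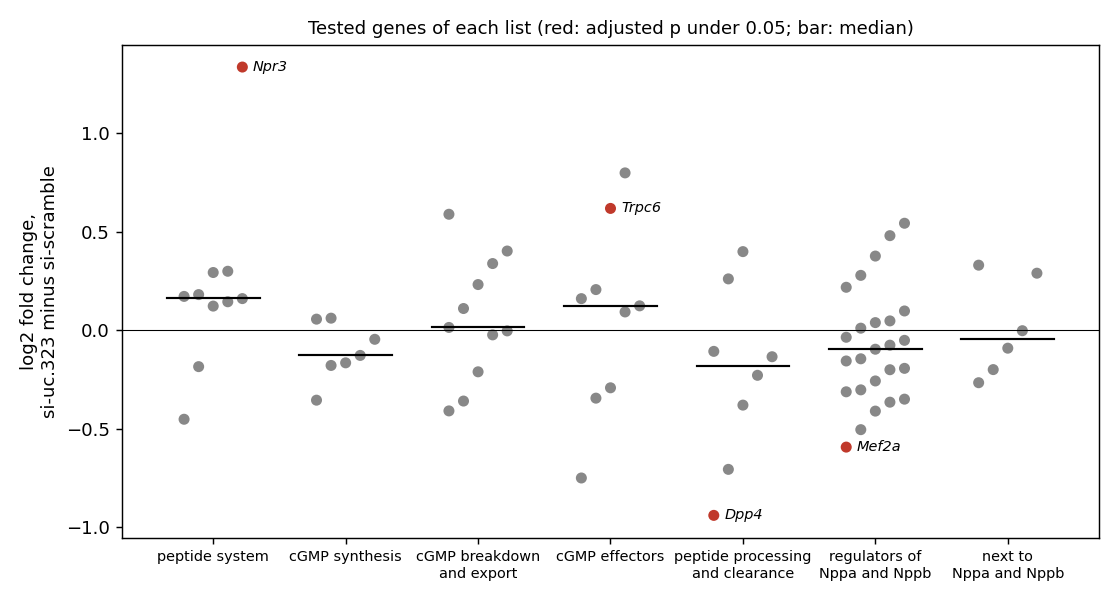
Log2 fold change (vertical axis, si-uc.323 minus si-scramble) of each tested gene of the system and of the lists of related genes, with red for an adjusted p under 0.05 and a bar at each list's median. The members hold 1 called gene of 10, and the lists hold 0 of 7, 0 of 11, 1 of 9, 1 of 8 and 1 of 25.

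The genes around the Nppb and Nppa pair were set beside it, taking the 5 nearest protein-coding genes on either side in the RefSeq table. Of these 10, 6 had a matched probe, all 6 were tested and 0 passed in limma (1 at an unadjusted p under 0.05), with 2 positive, 4 negative and a median of −0.046. Clcn6, the chloride transporter gene right after Nppa, differed by −0.27 (limma adjusted p = 0.153) with groups that did not overlap. Agtrap, which binds the angiotensin receptor, differed by −0.0015 (limma adjusted p = 0.995), with a sign that varied between alternatives. On the other side 2510039O18Rikl differed by 0.33 (0.201), Plod1 by −0.20 (0.378), Mfn2 by −0.090 (0.651) and Miip by 0.29 (0.215), each with its limma adjusted p in parentheses.

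Over the 6 arrays, the genes whose pattern was most like that of Nppa were Mak16 (Pearson r = 0.997), Mat2a (0.996) and Wdr43 (0.995), which differed between groups by 0.46, 0.43 and 0.46 on the log2 scale. Most like Nppb were Vom2r19 (Pearson r = 0.995), Mmp17 (0.994) and Fancb (0.990), which differed by 0.72, 0.38 and 0.39. No gene stood on both lists. These 6 arrays share groups, slides and scaling, and the values describe likeness over these arrays only.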

How the data were processed

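The submitters' processing notes name Agilent Feature Extraction 11.0.1.1, used on arrays of design 028282. The deposited scanner files hold each spot's intensity, background-subtracted and not scaled between arrays, with probes on build rn4, per the file headers. The authors' deposited series matrix holds log2 values whose median is 6.51 in each of the 6 columns, so their scale is unlike the spot values. What was done is not given in the sources used here, and it served as an alternative only (correlation 0.995 to 0.999 with the scanner values). Its fit was nearly that of quantile normalization: 1827 against 1828 probes called in limma, and 1.27 for Npr3 in both. These alternatives are therefore not separate checks.

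Control spots and flagged spots (non-uniform, or outliers among copies; 322 to 594 of 42877 per array) were left out, spots of a probe were averaged on the log2 scale after subtracting the array's 75th percentile, and 44 probes with a missing value were dropped. Probes that cleared the background on all 3 arrays of either group were tested with limma 3.58.1 (R 4.3.3), without covariates, over 21994 probes with Benjamini-Hochberg adjustment and a threshold of 0.05. The fit was also run on simulated data with independent noise, the same spread in both groups and no slide effect. That run therefore cannot show how the fit behaves with the slides of these data. Names came from RefSeq GRCr8 by accession: 18005 probes had 1 gene and 12362 none. For listed genes the brightest tested probe stood. Slides were inferred from the scan dates in the headers and are not named by a label. Normexp (offset 50) used median spot signals. Promoters are RefSeq's (GRCr8). Figures used matplotlib 3.10.9 in Python 3.11.15.

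The members and lists were chosen with earlier results of these data known. Named were all members, each list's genes past the threshold and its other 2 with the lowest adjusted p, every measured neighbour of Nppa and Nppb, and the 3 genes most like each; genes whose probes disagreed and cell type markers were named after their values were seen. There were 20 alternatives.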

Additional observations from a re-analysis of the deposited data

How the results depend on the processing

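Of 29 genes followed over 20 alternatives, 26 kept their sign. Corin became −0.089 and Kcnmb1 −0.0025 with normexp background correction. Agtrap, near 0, became 0.027 with normexp, 0.065 with array weights, 0.12 with slide as a block, 0.12 on slide 1 alone, and lay between −0.062 and 0.077 on leaving out an array. The cause was not tested.

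Against 1295 probes called with limma, cyclic loess called 2162, a trended and robust prior 2151, array weights 6542, slide as a block 9, slide 1 alone 0 (6577 at an unadjusted p under 0.05), no filter on dim probes 0 (5676 unadjusted) and leaving out an array 0 to 3247. Members called, 1 of 10, became 3 with array weights, 0 with no filter, slide as a block or slide 1 alone (3, 1 and 4 at an unadjusted p under 0.05), and 0 to 2 on leaving out an array. Breakdown and export genes became 3 with array weights, and neighbours of Nppa and Nppb 2. Effectors, 1 of 9, became 4 with array weights, 0 with quantile normalization, series values, no filter, replicate block, slide as a block or slide 1 alone, and 0 to 2 on leaving out an array. Processing and clearance genes, 1 of 8, became 2 with normexp, loess, series values or a trended prior, 3 with array weights, 0 with no filter, slide as a block or slide 1 alone, and 0 to 2 on leaving out an array. Regulators, 1 of 25, became 3 with normexp, quantile normalization, median shift or loess, 2 with series values or a trended prior, 8 with array weights, 0 with no filter, replicate block, slide as a block or slide 1 alone, and 0 to 2 on leaving out an array. Where these counts were 0 with all arrays or on slide 1, 3 to 4 effectors, 2 to 3 processing genes and 3 to 8 regulators had an unadjusted p under 0.05.

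Same-numbered samples deviated with correlations of 0.20, 0.39 and −0.11, so the replicate numbers were not taken to pair the samples; with the replicate block 804 probes were called, Npr3 among them (limma adjusted p = 0.0198). All members were well above background on every array, yet some differed with normexp, which also used median spot signals: Prkg1 became 0.023, Nppc 0.066 and Npr3 1.07. Npr2 moved less, from 0.16 to 0.13. The cause was not tested.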
